A study of Mus musculus with 7 samples.

Results

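The genes described here are those of the integrated stress response and the unfolded protein response, 38 genes chosen by symbol, each found through the RefSeq transcript named beside its probes. All 38 had at least 1 probe, and 36 gave signal that could be tested, out of 22346 features tested on the array (13693 of them named genes). They were divided by role into 21 targets of the transcription factor ATF4, 10 genes of protein folding and degradation in the endoplasmic reticulum (ER), and 7 sensors and other regulators.

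In the integrated stress response, kinases that sense different stresses phosphorylate the translation factor eIF2α. General protein synthesis then slows while translation of the Atf4 message increases, and ATF4 switches on genes of amino acid uptake and synthesis together with genes that reverse the block. The unfolded protein response starts in the ER from the sensors PERK, IRE1 and ATF6, of which PERK feeds into eIF2α, while IRE1 (through the factor XBP1) and ATF6 raise chaperones and the machinery of ER-associated degradation (ERAD). In heart muscle both responses are known from pressure overload, ischaemia and mitochondrial disease.

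RNA came from the heart apex of male C57BL/6 mice and was measured on 1-colour Agilent arrays. The 3 knockout (KO) hearts were from mice homozygous for the p38α flox/flox allele, with loxP sites around exons 2 and 3 of Mapk14, and heterozygous for α-MHC mercremer, a Cre recombinase that tamoxifen activates and that the α-MHC promoter directs to cardiomyocytes. The 4 control hearts were from p38α flox/flox mice without Cre. Every mouse of both groups received hydroxytamoxifen (500 µg per day for 10 days, from 6 weeks of age) and angiotensin II, a pressor peptide (1.5 mg/kg per day by minipump for 48 hours), and was 3 months old at harvest. The study describes 4 hearts per group, and the fourth KO heart was not analysed here. The labels number the samples as replicates. Each was taken as a separate heart, so that p-values measure the spread between animals. Mice without angiotensin II were not analysed here, and loss of p38α and presence of Cre cannot be told apart.

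The arrays shared 1 slide and 1 scan time, and 46.0% to 49.7% of probes were well above background on each. Mapk14, the deleted gene, was not lower in KO: it averaged 3.74 in KO and 3.51 in control hearts (log2 signal), with every KO heart above every control and a difference of 0.22 ± 0.12 (SE, adjusted p = 0.202). Where its probes lie relative to the floxed exons was not determined, so they do not check the labels. Esr1, whose gene supplies a part of mercremer, had 3 probes. The probe used for it, kept only through the KO arrays, was well above background on 3 of 3 KO and 0 of 4 control arrays. The hearts of the groups were not cleanly apart over all 22304 features with a value on every array: KO replicate 3 correlated with control replicate 2 at r = 0.988, while control replicate 2 correlated with control replicates 3 and 4 at 0.976 and 0.977. Of 10 cardiomyocyte markers 4 fell and 0 rose, with a summed signal of 4680 to 5390 in KO and 5720 to 8350 in control hearts (in units of each array's 75th percentile), and all 10 were detected. Of 10 neutrophil markers, 3 were detected on all arrays: S100a8 and S100a9 rose by 3.33 and 3.14, and Csf3r, which makes up most of the summed signal (102 to 178 in KO, 114 to 177 in control hearts), differed by -0.23 (adjusted p = 0.442). Fpr1 and Fpr2 (detected on 2 of 4 control arrays) and Cxcr2 and Mmp9 (0 of 4) were higher in KO but reached the test only through the KO arrays, and Ngp was detected on none. Of 13 monocyte and macrophage markers 4 rose and 0 fell (144 to 212 in KO, 134 to 153 in control hearts). C1qa, C1qb, C1qc, Csf1r, Adgre1, Lyz2, Cd68, Ccr2 and Itgam did not pass. Itgam was the only marker of this list with a negative difference (-0.56, adjusted p = 0.0922). Liver transcripts had a summed signal of 3.29 to 4.05 in KO and 6.21 to 12.6 in control hearts. Alb, Mup19, Fabp1 and Fgg were detected on 0 of 3 KO and 4 of 4 control arrays, and Serpina1a and Apoa2, detected on all, fell by 3.77 and 0.95. Of 10 fibroblast markers 1 rose and 2 fell, of 10 endothelial markers 0 rose and 1 fell, and of 8 smooth muscle and pericyte markers 0 rose and 1 fell. All these marker counts stand beside 10.2% of all features higher and 15.0% lower in KO. The fibroblast, endothelial, and smooth muscle and pericyte counts lay near those shares. Because the RNA is from whole tissue, a change in the number of cells of a type and a change in RNA per cell cannot be told apart, and the part of these markers in the results below was not tested.

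The promoters give the letters through which these genes are known to respond. ATF4, with a C/EBP partner, recognises an element written TGATGNAA, most often TGATGCAA, which the looser form includes. ATF6, with NF-Y, recognises the ER stress element, CCAAT and CCACG with 9 bases between. RefSeq promoter windows (GRCm38.p6, 250 bases before to 50 after the annotated start) were found for 33 of the 38 genes, all but Atf6, Ppp1r15b, Slc7a5, Slc1a5 and Manf, and were searched on both strands. TGATGNAA was present for 8 of 19 ATF4 targets (42.1%), 1 of 9 ER folding and ERAD genes (11.1%), 0 of 5 regulators and 4.13% of 17492 protein-coding genes. TGATGCAA alone was present for 6 of the 19 targets (31.6%) and 1.01% of all genes. The ER stress element was present for 4 of 9 ER genes (44.4%), 0 of 19 ATF4 targets and 0.166% of all genes, and TGACGTGG, a UPR element, for 0 of 33 genes and 0.823% of all. Other spacings or orders of the parts of the ER stress element were not searched. A gene without a match, Herpud1 included, may hold it in another form.

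The stretches below hold the matches in capitals, with 6 flanking bases, read 5′ to 3′ along the strand that carries the motif (the strand of the gene for Asns, Canx and Pdia6, the opposite one for the others). The first 3 belong to the genes with a match whose level changed (Asns and Slc1a4 higher, Herpud1 lower in KO), and the next 4 to genes measured without passing the test.
Asns, chr6:7693219-7693238: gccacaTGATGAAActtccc
Slc1a4, chr11:20332704-20332723: tggagaTGATGCAAcgcagg
Herpud1, chr8:94386311-94386330: gcgggcTGATGCAAcccgcc
Atf3, chr1:191183430-191183449: acttggTGATGCAAgtgcga
Chac1, chr2:119351043-119351062: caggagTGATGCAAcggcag
Trib3, chr2:152344033-152344052: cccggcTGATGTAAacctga
Nupr1, chr7:126625567-126625586: cctgtcTGATGCAAtctggc

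The ER stress element, from its CCAAT to its CCACG, lay in 4 folding genes, none of which passed the test.
Calr, chr8:84847069-84847099: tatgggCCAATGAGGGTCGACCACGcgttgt
Canx, chr11:50325794-50325824: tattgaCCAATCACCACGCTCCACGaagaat
Pdia6, chr12:17266485-17266515: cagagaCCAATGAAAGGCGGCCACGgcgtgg
Creld2, chr15:88819514-88819544: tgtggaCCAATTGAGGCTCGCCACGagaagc

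KO hearts had higher levels of Atf4 itself, of its targets Asns and Gdf15, and of 4 of its 6 tested amino acid transporter targets. Of these transporters, Slc7a5 rose by 1 of its 2 probes. The targets Ddit3, Atf3, Trib3, Chac1 and Ppp1r15a and the ER chaperones did not pass the test. Their differences ran from -0.43 (Ddit3) to 0.85 (Ppp1r15a). Trib3 (0.51) differed by more than Slc1a4 (0.46), which passed, so passing did not sort the genes by size of difference. Of the 36 tested genes 13 rose and 1 fell at an adjusted p of 0.05 (36.1% and 2.78%), beside 10.2% of all features higher and 15.0% lower in KO. The 13 include Slc7a5, and with the mean over the probes of each gene 12 rose, without it. The median log2 difference, KO minus control, was 0.55 over the 36 genes and -0.06 over all features. KO and control hearts did not overlap for 13 genes higher and 1 lower in KO, beside 17.6% and 21.4% of all features with complete values. By role, 5 of 7 regulators rose (median 0.63), 7 of 19 ATF4 targets rose (median 0.51), and of 10 ER genes 1 rose and 1 fell (median 0.55), so the medians lay close together although the share past the threshold was higher among regulators and targets. Whether the groups of genes differ from one another was not tested.

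**Figure D1:**
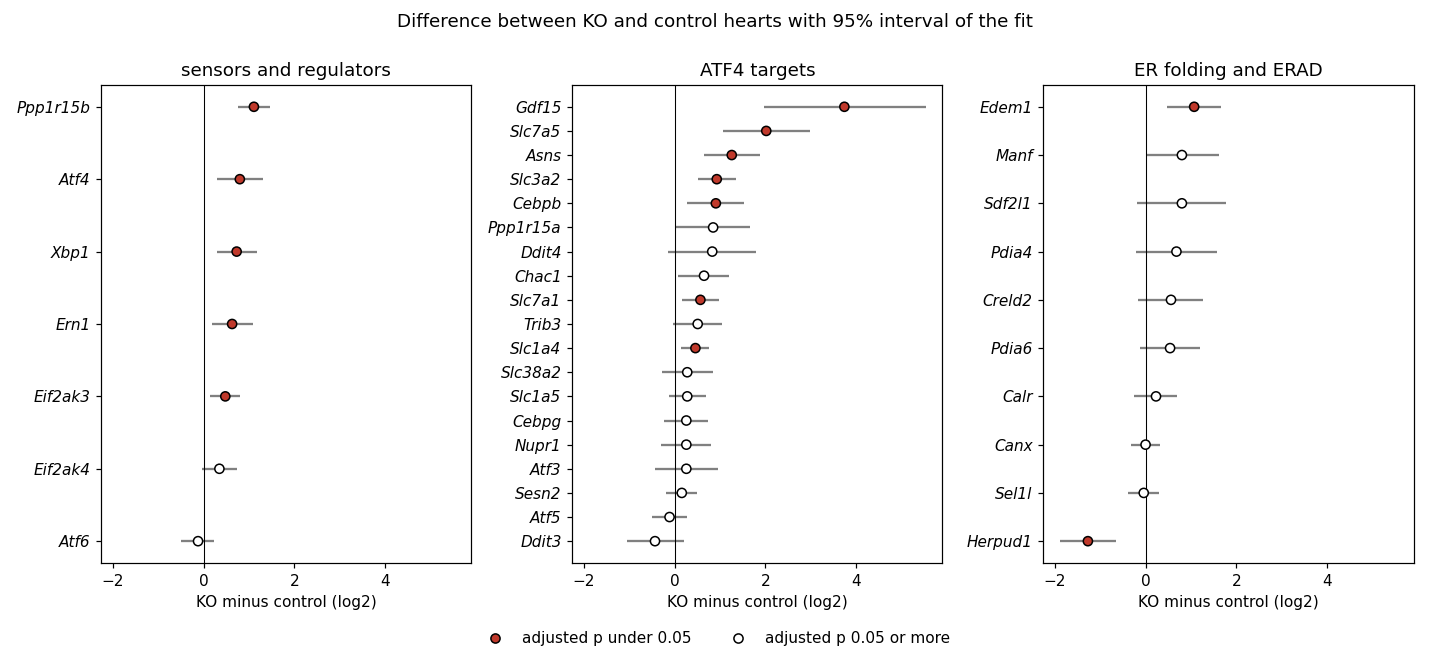
Log2 difference between KO and control hearts for each of the 36 tested genes (x axis, log2; circle, fitted difference; line, its 95% interval), with sensors and regulators, ATF4 targets, and ER folding and ERAD genes in a panel each. Filled circles are the 14 genes with an adjusted p under 0.05; Gdf15 lies furthest right at 3.74 and Herpud1 furthest left at -1.27.

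The calls depended on single hearts. The direction of all 14 was kept in every fit that left out 1 heart, but the adjusted p stayed under 0.05 for 0 of the 14 without KO replicate 1, 1 without KO replicate 2 (Ppp1r15b) and 12 without KO replicate 3, and for 8, 9, 7 and 7 without control replicates 1 to 4. The calls over all features moved with them: without KO replicate 1, 20 features were higher and 49 lower in KO. Without both control replicate 2 and KO replicate 3, an alternative chosen after seeing the data, 11 of the 14 kept their call, and 12 genes rose and 1 fell in all. With dim probes left in, 1 of the 14 kept its call, and with no moderation of the variance 0 did.

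Among the sensors, those for ER stress with a kinase domain rose and ATF6 did not. Eif2ak3, which encodes the ER kinase PERK, read 0.53, 0.46 and 0.19 in KO hearts, against -0.09, -0.05, 0.03 and -0.23 in controls (log2 signal relative to the array's 75th percentile, the scale of all levels that follow). Ern1, which encodes IRE1, the kinase and nuclease that splices the Xbp1 message, read -0.24, -0.84 and -0.85 in KO hearts and -1.52, -1.15, -1.29 and -1.14 in controls. The groups did not overlap for either gene, and the differences were 0.48 ± 0.14 (SE, adjusted p = 0.0426) for Eif2ak3 and 0.63 ± 0.19 (adjusted p = 0.0471) for Ern1. Both calls were lost without any 1 of the 4 control hearts, KO replicate 1 or KO replicate 2, with differences of 0.41 to 0.58 and 0.43 to 0.73 over the 7 fits without 1 heart, and Ern1 also missed the threshold with normexp background correction (0.45, adjusted p = 0.0659) and with quantile normalization (0.62, adjusted p = 0.0501). Eif2ak4, which encodes the amino acid sensor GCN2, differed by 0.35 (adjusted p = 0.141, 95% interval -0.03 to 0.73), and Atf6 by -0.12 (adjusted p = 0.567, interval -0.49 to 0.24).

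The messages of both central factors rose. Atf4 read 6.91, 6.99 and 6.11 in KO hearts, against 5.92, 5.95, 5.80 and 5.79 in controls, a difference of 0.80 ± 0.22 (SE, 1.75-fold, adjusted p = 0.0343). KO replicates 1 and 2 stood well above the controls and KO replicate 3 just above them, without overlap. A dimmer Atf4 probe gave 0.87 (exact permutation p = 0.0286, two-sided over the 35 splits of 7 hearts, the smallest they allow). Xbp1, which the IRE1 branch activates by splicing that these probes were not shown to separate, read 6.16, 6.31 and 5.92 in KO hearts and 5.27, 5.40, 5.80 and 5.13 in controls, with KO replicate 3 just above control replicate 3. It differed by 0.73 ± 0.19 (SE, 1.66-fold, adjusted p = 0.0301). The Atf4 call was lost without KO replicate 1 (0.69), KO replicate 2 (0.64) or control replicate 1, 3 or 4, with adjusted p from 0.0663 to 0.139, and the Xbp1 call without KO replicate 1, KO replicate 2, control replicate 1 or control replicate 4, with adjusted p from 0.0683 to 0.114.

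Of the subunits that direct phosphatase to eIF2α and so end the translation block, the constitutive one was clearly higher. Ppp1r15b, which encodes that constitutive subunit (CReP), read -0.97, -1.14 and -1.38 in KO hearts, against -2.32, -2.05, -2.35 and -2.35 in controls. All KO hearts lay well above all controls, and the difference of 1.11 ± 0.15 (SE, 2.16-fold, adjusted p = 0.0118) had the lowest adjusted p of the 36 genes. It lay between 1.01 and 1.22 when single hearts were left out, and of those 7 fits missed the threshold only without KO replicate 1 (adjusted p = 0.0633). With normexp background correction the Ppp1r15b difference was smaller, at 0.67 (adjusted p = 0.00634). Ppp1r15a, the stress-induced subunit GADD34 and an ATF4 target, read 4.14, 4.61 and 3.04 in KO hearts and 2.82, 3.18, 3.47 and 2.86 in controls. KO replicate 3 lay among the controls, and the difference of 0.85 ± 0.36 (SE) did not pass (adjusted p = 0.110), although it did without KO replicate 3 (1.29, adjusted p = 0.0133).

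**Figure D2:**
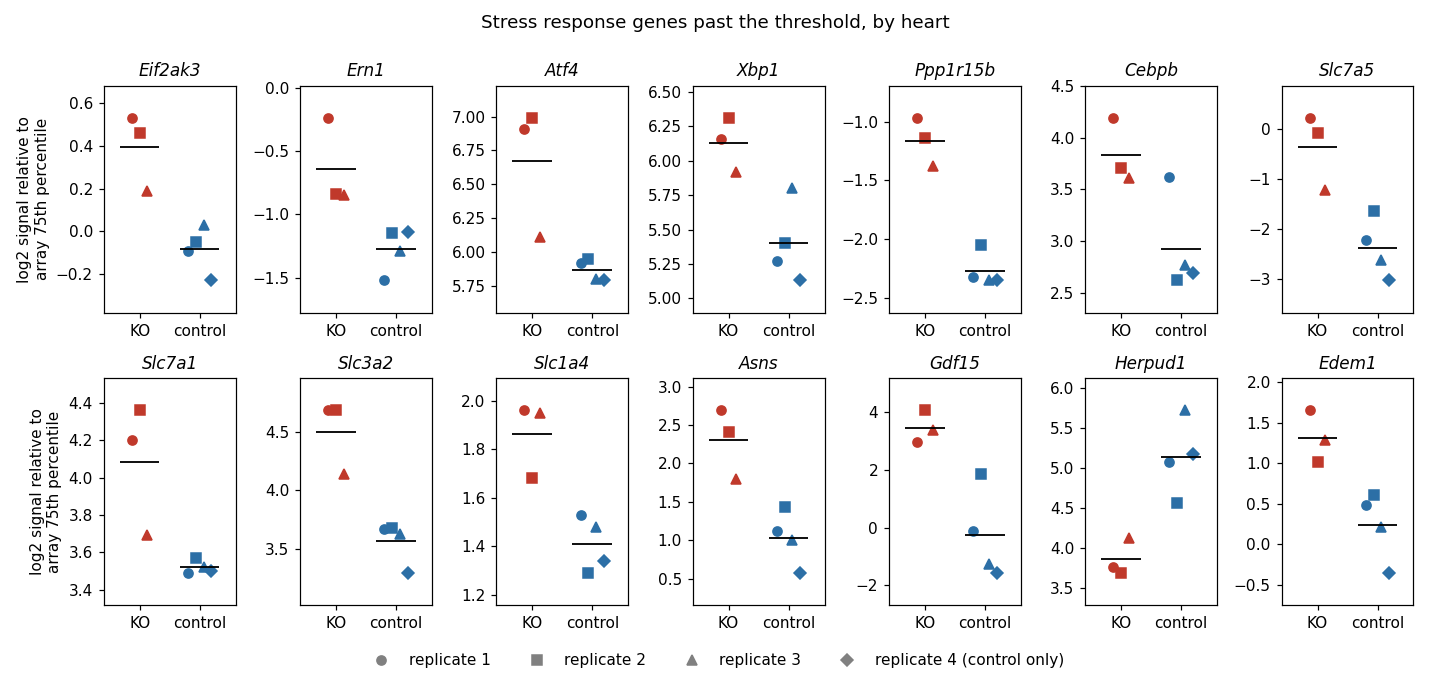
Level in each heart of the 14 genes past the threshold (y axis, log2 signal scaled to each array's 75th percentile, with separate axes for the genes), with KO hearts left and control hearts right, marker shapes for replicate numbers and a line at each group mean. KO and control hearts overlap only for Cebpb, and KO replicate 3 is the lowest KO heart for Atf4, Slc7a5, Slc3a2 and Asns.

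Amino acid transporters made up 4 of the 7 ATF4 targets that rose, beside 10.2% of all features higher in KO. Both counts include Slc7a5, whose call rests on the choice of probe described below. Slc7a5, the light chain of a transporter for large neutral amino acids (LAT1), read 0.22, -0.07 and -1.22 in KO hearts, against -2.22, -1.64, -2.62 and -3.02 in controls. Slc3a2, the heavy chain that carries it to the cell surface, read 4.68, 4.68 and 4.14 in KO hearts and 3.67, 3.68, 3.63 and 3.30 in controls. The partners were thus both above every control in every KO heart, lowest in KO replicate 3, with differences of 2.02 ± 0.42 (SE, 4.05-fold, adjusted p = 0.0176) for Slc7a5 and 0.93 ± 0.18 (SE, 1.90-fold, adjusted p = 0.0161) for Slc3a2. Both missed the threshold without KO replicate 1 (1.73 and 0.84, adjusted p = 0.0825 and 0.0819) and without KO replicate 2 (adjusted p = 0.0579 and 0.0551). The probes of Slc7a5 disagreed. A second probe for the same transcript, detected on all 7 arrays, read -2.72, -2.18 and -3.20 in KO hearts and -2.45, -2.39, -1.92 and -2.10 in controls, a difference of -0.48 (exact permutation p = 0.143). The first probe was used because its mean over all 7 hearts was higher, which its KO values decided, so the call rests on a choice made through the group where it is high. With the mean over both the difference was 0.77 (adjusted p = 0.0726). With normexp background correction the Slc7a5 difference was 1.40 (adjusted p = 0.00609).

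The other transporters moved less. Slc7a1, a carrier of arginine and lysine, read 4.20, 4.36 and 3.69 in KO hearts and 3.49, 3.57, 3.52 and 3.50 in controls, and Slc1a4, a carrier of alanine, serine and cysteine, 1.96, 1.68 and 1.95 in KO hearts and 1.53, 1.29, 1.48 and 1.34 in controls. Neither overlapped between the groups, and the differences were 0.57 ± 0.17 (SE, adjusted p = 0.0489) and 0.46 ± 0.14 (SE, adjusted p = 0.0450). Of the 7 fits without 1 heart, the Slc7a1 call was kept only without KO replicate 3 (adjusted p = 0.0105), and the Slc1a4 call in none (adjusted p from 0.0609 to 0.172). Slc38a2 and Slc1a5, carriers of small neutral amino acids and glutamine, each differed by 0.28 and did not pass (adjusted p = 0.389 and 0.262). A dimmer Slc1a5 probe, detected on all 7 arrays, gave 0.44 without overlap of the groups (exact permutation p = 0.0286). With the mean over both Slc1a5 probes the difference was 0.36 and did not pass (adjusted p = 0.135). Slc7a11, the cystine carrier, stayed below the detection limit in all 7 hearts.

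Among the other effectors, Asns, which makes asparagine, rose. It read 2.69, 2.41 and 1.80 in KO hearts, against 1.12, 1.44, 1.01 and 0.58 in controls, so every KO heart exceeded every control. The difference was 1.26 ± 0.27 (SE, 2.40-fold, adjusted p = 0.0184), and it missed the threshold without KO replicate 1 (adjusted p = 0.0857) or KO replicate 2 (adjusted p = 0.0591). Chac1, which degrades glutathione, read 0.26, 0.36 and 0.44 in KO hearts and 0.20, -0.56, -0.79 and -0.02 in controls. Its groups did not overlap, but control replicate 1 lay close to the KO hearts, and the difference of 0.65 ± 0.25 (SE) did not pass (adjusted p = 0.0853). Trib3, a pseudokinase that restrains ATF4, differed by 0.51 (adjusted p = 0.132, or 0.77 and 0.0247 without KO replicate 3), Ddit4, an inhibitor of mTORC1, by 0.83 (adjusted p = 0.172) and Sesn2, another such inhibitor, by 0.16 (adjusted p = 0.447).

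Gdf15 and Fgf21 encode the hormones by which the integrated stress response of muscle is known to act on other organs. Only Gdf15 was detected. Gdf15 read 2.97, 4.07 and 3.38 in KO hearts, against -0.11, 1.87, -1.28 and -1.57 in controls. Its level varied more among controls (SD 1.56, n = 4) than among KO hearts (SD 0.55, n = 3), with control replicate 2 nearest to the KO hearts. The difference of 3.74 ± 0.77 (SE, 13.4-fold, adjusted p = 0.0176) was the largest of the 36 genes, was 4.46 without control replicate 2, and missed the threshold without KO replicate 1 (adjusted p = 0.0733) or KO replicate 2 (adjusted p = 0.0579). Fgf21 stayed below that limit of detection in all 7 hearts. Gdf15 is also made by macrophages, of whose 13 markers the 4 that rose were Fcgr1, Cd14, Msr1 and Mrc1, while the others did not pass. The part of macrophages in the Gdf15 difference was not tested.

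Of the 6 transcription factors and chromatin proteins downstream of ATF4, 1 rose (16.7%), near the 10.2% of all features higher in KO. Cebpb, a partner of ATF4 that immune cells also express, read 4.19, 3.71 and 3.61 in KO hearts and 3.62, 2.62, 2.77 and 2.69 in controls, where control replicate 1 lay level with the lowest KO heart. It rose by 0.91 ± 0.27 (SE, adjusted p = 0.0456), a call that, of the 7 fits without 1 heart, was kept only without control replicate 1 (1.14, adjusted p = 0.0388). Ddit3, which encodes the death-promoting factor CHOP, read 0.63, 1.15 and 0.41 in KO hearts, against 0.95, 0.70, 1.66 and 1.34 in controls. The hearts overlapped, and the difference was -0.43 (adjusted p = 0.260, 95% interval -1.05 to 0.20). Atf3, a repressor induced by many stresses, read 2.75, 2.29 and 1.61 in KO hearts and 2.45, 1.63, 1.77 and 1.98 in controls, again overlapping, with a difference of 0.26 (adjusted p = 0.529, interval -0.43 to 0.95). Cebpg, the dimer partner of ATF4, and Nupr1, a small chromatin protein, each differed by 0.26 (adjusted p = 0.376 and 0.441), and Atf5, translated like Atf4 and active in the mitochondrial branch, by -0.11 (adjusted p = 0.649).

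The calls can be set beside the ATF4 letters printed above. Of the 6 tested ATF4 targets with TGATGNAA in the window, 2 rose (Asns and Slc1a4). Of the 11 without it 4 rose (Cebpb, Slc7a1, Slc3a2 and Gdf15), beside 10.2% of all features higher in KO. Of the 7 fits without 1 heart, the Slc1a4 call was kept in 0, and those of Cebpb and Slc7a1 in 1 each. The calls of Asns, Slc3a2 and Gdf15 were kept in 5 each. Slc7a11 and Fgf21, which also hold the letters, were the undetected pair. Cebpb and the others without the letters were searched in this window only, and whether the counts differ was not tested.

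None of the 7 folding genes of the ER passed the test, beside 10.2% of all features higher and 15.0% lower in KO. So few genes cannot be set apart from those shares. Their median difference was 0.56, beside 0.51 for the ATF4 targets. Calr and Canx, the lectin chaperones calreticulin and calnexin, differed by 0.23 (adjusted p = 0.429) and 0.00 (adjusted p = 0.991, interval -0.32 to 0.32). The protein disulphide isomerases Pdia4 and Pdia6 differed by 0.68 (adjusted p = 0.215) and 0.54 (adjusted p = 0.189), and a dimmer Pdia6 probe by 0.18. Creld2, Sdf2l1 and Manf, small secretory pathway proteins known as markers of ER stress, differed by 0.56, 0.80 and 0.80 (adjusted p = 0.203, 0.190 and 0.118), and Manf passed without control replicate 3 (adjusted p = 0.0412). The positive differences came with a wide spread inside each group. Sdf2l1 read 2.39, 1.36 and 2.14 in KO hearts and 0.88, 1.76, 1.81 and 0.22 in controls, and Manf 4.08, 3.53 and 3.85 in KO hearts and 2.84, 3.06, 3.89 and 2.28 in controls.

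The spread inside the groups was shared between genes. KO replicate 2 was the lowest KO heart for 6 of the 7 folding genes and control replicate 4 the lowest control for 6 of 7, whereas KO replicate 3 was the lowest KO heart for 14 of the 19 ATF4 targets and all 7 regulators. Averaged over genes, as log2 distance from the control mean, the ER genes stood at 0.53, 0.00 and 0.48 in KO hearts, against -0.11, 0.23, 0.33 and -0.45 in controls. The ATF4 targets stood at 0.84, 0.89 and 0.43 in KO hearts, against 0.10, 0.06, 0.03 and -0.19 in controls. KO replicate 2, with the lowest ER mean of the KO hearts, thus had an ATF4 target mean (0.89) close to that of KO replicate 1 (0.84). KO replicate 1 had the highest ER mean (0.53), so the 2 means did not run opposite across the KO hearts. The medians over the same genes did. In KO replicates 1 to 3 they were 0.73, 0.09 and 0.79 for the ER genes. For the ATF4 targets they were 0.56, 0.78 and 0.20. Whether the groups of genes run opposite across hearts was not tested.

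**Figure D3:**
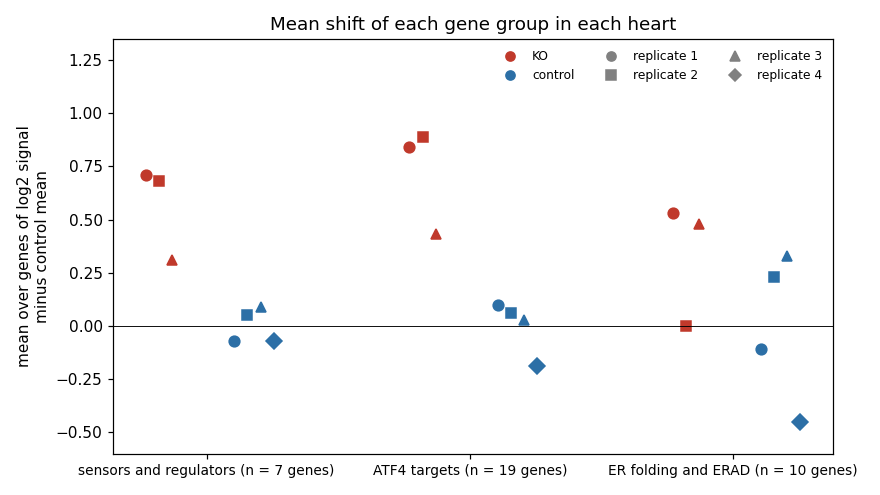
Mean over the tested genes of each role of the log2 distance from the control mean (y axis, log2), one marker per heart, KO hearts left of control hearts, shapes for replicate numbers. KO and control hearts are apart for the regulators and the ATF4 targets and overlap for the ER genes, where KO replicate 2 lies at 0.00.

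The degradation genes of the ER did not share a direction. Herpud1, a membrane protein that organises the ubiquitin ligase complex of ERAD, read 3.76, 3.69 and 4.13 in KO hearts, against 5.07, 4.56, 5.72 and 5.18 in controls. Every KO heart was below every control, and the difference of -1.27 ± 0.26 (SE, 2.41-fold lower in KO, adjusted p = 0.0179) made it the 1 gene of the 36 that fell. Edem1, which hands misfolded glycoproteins to degradation, read 1.65, 1.01 and 1.28 in KO hearts, against 0.49, 0.61, 0.21 and -0.35 in controls, and rose by 1.07 ± 0.26 (SE, 2.10-fold, adjusted p = 0.0245). Sel1l, the scaffold of the same ligase, differed by -0.04 (adjusted p = 0.861, interval -0.38 to 0.30). Both calls were lost without KO replicate 1 (adjusted p = 0.0831 for Herpud1 and 0.106 for Edem1) or KO replicate 2 (0.0587 and 0.0526), and that of Edem1 also without control replicate 3 (0.0576).

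**Figure D4:**
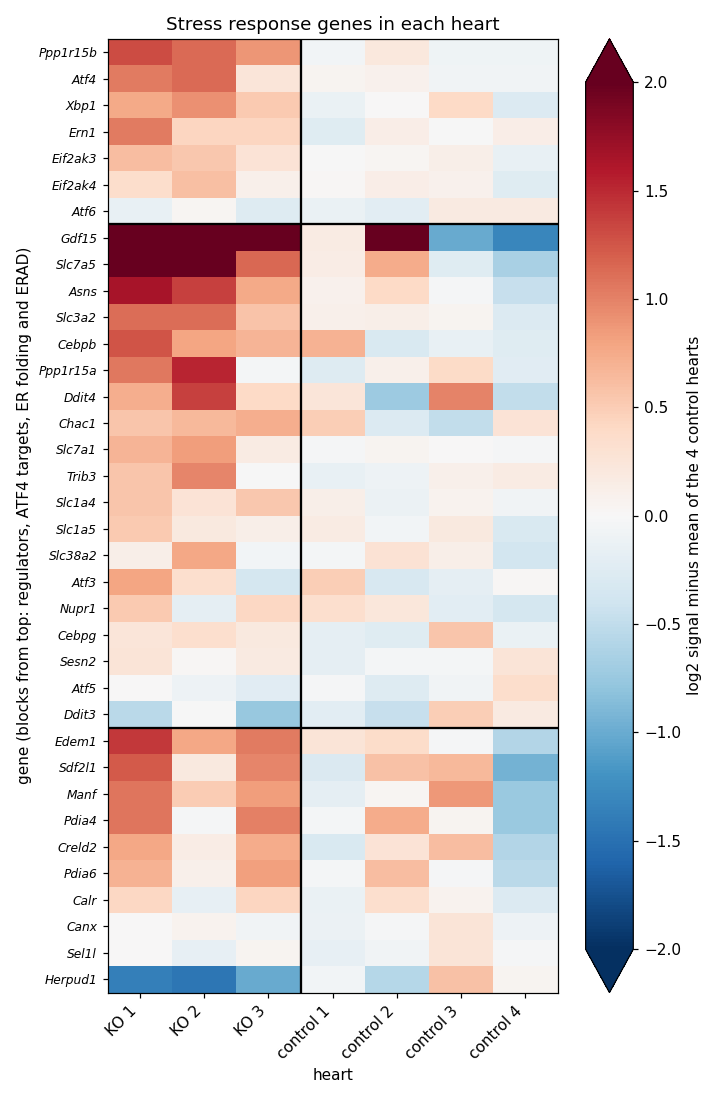
Level of the 36 tested genes in each heart (colour, log2 signal minus the mean of the 4 control hearts, limited to 2 either way), KO hearts left, controls right, in blocks of regulators, ATF4 targets, and ER folding and ERAD genes. Herpud1 is blue in all 3 KO hearts, and most chaperones are lower in KO replicate 2 than in KO replicates 1 and 3.

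Wider lists of the same pathways were measured beside the 38 genes. Of 32 other genes of the ATF4 and eIF2α pathway 8 rose and 2 fell (median 0.38), beside 10.2% of all features higher and 15.0% lower in KO. The serine and folate enzymes Psat1 and Mthfd2 differed by 2.43 ± 0.46 (SE, adjusted p = 0.0149) and 2.18 ± 0.38 (adjusted p = 0.0137), the calcineurin regulator Rcan1 by 1.01 ± 0.20 (adjusted p = 0.0164), and Jdp2, a repressor related to ATF3, by 0.72 ± 0.14 (adjusted p = 0.0165). Of 38 tested genes among 39 others of the unfolded protein response 10 rose and 0 fell (median 0.40), beside the same shares of all features. They included Creb3, a factor cleaved on its way out of the ER (1.14 ± 0.19, adjusted p = 0.0126), the signal peptidase subunit Spcs3 (1.61 ± 0.32, adjusted p = 0.0163), the translocon channel Sec61a1 (1.06 ± 0.23, adjusted p = 0.0189) and the chaperone Hspa13 (0.59 ± 0.13, adjusted p = 0.0194). Hspa5 and Hsp90b1, the abundant chaperones BiP and GRP94 that mark the unfolded protein response and that were singled out after their values were seen, differed by 0.18 ± 0.24 (SE, adjusted p = 0.586) and 0.04 ± 0.23 (adjusted p = 0.912).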

How the data were processed

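Heart apex RNA (100 ng, Cy3) was measured on 1-colour Agilent arrays read with Feature Extraction 11.0.1.1 (array design on mm9), per the file headers. The deposited intensity values are processed signals, background-subtracted within each array and not scaled between arrays, per the file headers. The authors' deposited log2 value table was used as an alternative: it has each row centred on its median over the arrays, correlated at r = 0.986 to 0.998 per array with signals treated likewise, and had column medians of 0 except 0.00793 (control replicate 4) and -0.0021 (KO replicate 2). Its scaling between arrays is not given in the sources used here.

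Log2 signals minus each array's 75th percentile were computed without control spots and outlier flags. Saturated spots were kept and spots of a probe averaged. Probes detected (well above background) in 3 or more hearts of either group were kept, and the brightest kept probe stood for a gene, which left 22346 features. Probes were named through their transcript accession and RefSeq (GRCm38.p6), which gave 28020 of 55681 probes 1 gene and left 27661 unnamed. Limma 3.58.1 (R 4.3.3) fitted KO minus control over all 7 arrays. P-values were adjusted across the 22346 features (Benjamini-Hochberg, called under 0.05), and every adjusted p here is limma's. A single probe was tested by exact permutation. The steps were tested on simulated data.

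All 38 genes are named, and of each wider list the 4 with the lowest p. The genes and lists were chosen with earlier results of these data known. Alternatives changed the background correction, normalization, filter, probe rule, source of values, blocks, variance estimate and hearts.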

Additional observations from a re-analysis of the deposited data

Results flagged for a closer look

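Of the 36 genes, 4 had 1 control heart standing apart from the other 3 by Dixon's criterion for 4 samples. Chance flags about 1 in 20 groups, or 1.8 of 36. The KO group, with 3 hearts, was too small for the criterion.

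Ppp1r15b read -2.05 in control replicate 2, against -2.35 to -2.32 in the other controls, and without that heart the difference was 1.18 (adjusted p = 0.00827). Cebpb read 3.62 in control replicate 1, against 2.62 to 2.77, and differed by 1.14 without it (adjusted p = 0.0388). Cebpg read 0.47 in control replicate 3, against -0.33 to -0.23, and differed by 0.44 without it (adjusted p = 0.0649). Slc3a2 read 3.30 in control replicate 4, against 3.63 to 3.68, and differed by 0.84 without it (adjusted p = 0.0416). The 4 values belong to 4 different control hearts.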

How the results depend on the processing

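All 14 called genes kept their direction without each heart in turn. Without 1 heart, 0 to 13 of the 36 genes rose and 0 to 1 fell, while 20 to 2842 of all features were higher and 49 to 4128 lower in KO. Without control replicate 2 and KO replicate 3, chosen after seeing the data, 2973 and 4092 features were higher and lower. With no filter on dim probes (48811 features) 1 gene rose and 0 fell, beside 440 features higher and 974 lower. Without moderation of the variance 0 rose and 0 fell, beside 25 and 65 features. With the replicate number as a block 0 rose and 0 fell, beside 6 and 3 features. Same-numbered hearts correlated in their deviations at 0.18, -0.22 and -0.20, which gives no sign that the numbers pair the hearts. Deviations within such small groups cannot exclude a pairing. With the slide row as a block, 3585 features were higher in KO. The cause of these moves was not tested. Normexp correction, quantile normalization and the mean over probes each kept 13 of the 14 calls, and the all-array filter, the slide row and the authors' deposited value table kept 14.

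The sign turned for Canx, Atf5, Sel1l and Atf3, none of which passed the test. Canx was at 0.00 with normexp, -0.03 with the replicate block, -0.01 with the slide row and -0.04 to 0.08 with hearts left out. Atf5 was at 0.01 with the replicate block. With hearts left out Atf5 ranged from -0.19 to 0.01, Sel1l from -0.11 to 0.05 and Atf3 from -0.01 to 0.57. Slc7a11 and Fgf21 were limited by signal over background.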

Other observations

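The wider lists can be divided by function into groups, drawn after their values were seen, and 10.2% of all features were higher and 15.0% lower in KO. Of 8 translocon and signal peptidase genes, which bring new proteins into the ER, 6 rose (median log2 difference 0.76, range 0.32 to 1.61). Of 9 other luminal chaperones 1 rose (median 0.30), and of 8 tested ERAD genes outside the 38 1 rose (median 0.18), both near the share of all features. Of 7 serine, one-carbon and proline enzymes 3 rose (median 0.93), of 7 cytosolic tRNA synthetases 1 rose (Gars, 0.49, adjusted p = 0.0278; median 0.37), and of 7 subunits of eIF2 and eIF2B 0 passed (median 0.37). Whether these groups differ was not tested. The genes that fell in the ATF4 and eIF2α list were Vldlr, a lipoprotein receptor (-1.05, adjusted p = 0.0410), and Stc2, a secreted glycoprotein (-0.47, adjusted p = 0.0493).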
